A study of Homo sapiens with 2 samples.

Results

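In all, 9 genes of MHC class I antigen presentation were followed through the libraries of the SETD2 isogenic pair: the heavy chain genes HLA-B, HLA-C, HLA-E and HLA-F, the light chain gene B2M, the peptide-loading genes TAP1, TAP2 and TAPBP, and the transactivator gene NLRC5. They were chosen by symbol, all 9 had a row in both tables, and they make up 9 of 23375 rows and 9 of the 16894 genes tested, those with 10 or more reads in the 2 libraries together. The wild-type library came from 786-O, an established human line of clear cell renal carcinoma that lacks functional VHL, and the knockout library from a 786-O line in which SETD2 was disrupted with a zinc finger nuclease. Both lines were grown in RPMI1640 medium with 10% fetal bovine serum and no other agent is labelled. The comparison asks which transcripts differ when 786-O cells lose intact SETD2, the enzyme that trimethylates lysine 36 of histone H3. With 1 library per line there is no replicate check and no test of the condition. Each difference is between these libraries, and whether the knockout line is 1 clone is not given in the labels.

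MHC class I molecules display peptides from inside the cell to CD8 T cells and natural killer cells. A heavy chain pairs with beta-2-microglobulin, the product of B2M, in the endoplasmic reticulum. The transporter made of TAP1 and TAP2 pumps peptides from the cytosol into that compartment, and tapasin, the product of TAPBP, holds the empty class I molecule at the transporter while it is loaded. NLRC5 is induced by interferon and enters the nucleus, where it joins a complex on a conserved promoter module of class I genes, made up of the W/S, X1, X2 and Y boxes. Interferon response elements and kappaB sites lie next to this module in the classical heavy chain genes.

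The promoter sequences are shown because they set out the elements that HLA-B, HLA-C and B2M have in common, and which of these the other windows hold. They are RefSeq reference sequences (GRCh38.p14), not read from the line, and each runs from 200 to 41 bases before the start on the strand of the gene. Windows were found for 7 of the 9 genes. Capitals mark TTTCNNTT (the spaced repeat of an interferon response element) with a TC that follows it directly, CCAAT (the core of the Y box), TGACG (the core of the X2 box), each on either strand, and matches to the kappaB consensus.
HLA-B: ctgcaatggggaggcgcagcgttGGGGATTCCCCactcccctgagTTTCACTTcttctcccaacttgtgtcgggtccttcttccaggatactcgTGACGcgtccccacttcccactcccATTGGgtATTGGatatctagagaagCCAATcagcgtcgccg
HLA-C: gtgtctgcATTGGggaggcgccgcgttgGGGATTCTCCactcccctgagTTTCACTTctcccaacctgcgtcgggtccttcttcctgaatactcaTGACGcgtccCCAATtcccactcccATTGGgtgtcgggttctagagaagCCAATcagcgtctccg
B2M: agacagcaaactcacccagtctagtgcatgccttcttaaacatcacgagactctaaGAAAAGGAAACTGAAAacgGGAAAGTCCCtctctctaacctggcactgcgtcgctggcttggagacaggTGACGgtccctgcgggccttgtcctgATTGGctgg

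The HLA-B window (chr6:31357220-31357379, minus strand) holds, from left to right, a kappaB match, TTTCACTT at 155 to 148 bases before the start, TGACG at 106 to 102 and 3 copies of the CCAAT letters. The HLA-C window (chr6:31272133-31272292, minus strand) has a kappaB match, TTTCACTT and TGACG in the same order, with 4 copies of the CCAAT letters, 1 of them left of the kappaB match. The 250 bases before the starts of the 2 genes were identical at 91.9% of aligned positions. In B2M (chr15:44711317-44711476, plus strand) overlapping interferon response letters at 142 to 129 bases and a kappaB match are followed by TGACG at 75 to 71 and by ATTGG at 49 to 45. The remaining windows were held to short sites, with the interferon response letters of either strand in capitals.
HLA-F: agagTTTCTCTTTCtctc
TAP1: ccgcTTTCGATTTCGCTTTCccct
TAP2: ggggAAGCGAAAGCGAAAgctg
TAPBP: ggagGAAAGTGAAAGTGAAAggag

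These sites are at chr6:29723274-29723291 for HLA-F (plus strand), chr6:32853819-32853842 for TAP1, chr6:32838784-32838805 for TAP2 and chr6:33314079-33314102 for TAPBP (minus strand). The letters TTTCNNTT stood in the 250 bases before the most upstream RefSeq start in all 7 genes, against 20.3% of 35116 RefSeq windows of that length. TTTCNNTT followed directly by TC, a fuller match to the element and a subset of the first, stood in 5 of 7 (HLA-F, B2M, TAP1, TAP2 and TAPBP), against 3.02% of windows. CCAAT was found in 5 of 7 (HLA-B, HLA-C, HLA-F, B2M and TAP1) and in 32% of windows. TGACG was found in 4 of 7 (HLA-B, HLA-C, B2M and TAP2) and in 21.2%. The kappaB consensus was found in 5 of 7 (HLA-B, HLA-C, B2M, TAP1 and TAPBP) and in 5.21%. TTTCNNTT, CCAAT and TGACG occurred together in HLA-B, HLA-C and B2M, and in 1.19% of all windows. A match is a run of letters and not a measured binding site.

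SETD2 itself had 4908 fragments in the wild-type library and 1404 in the knockout library. After TMM scaling, which sets the libraries level on the bulk of genes, this was 80.9 and 27.0 fragments per 1000000 (CPM), a ratio of knockout to wild type of 0.334 with an exact 95% counting interval of 0.314 to 0.354. The libraries held 62304084 and 50670012 fragments in genes, and all intervals cover counting error only. Among markers of the labelled cell type, the renal transcription factor PAX8 had 251 wild-type and 168 knockout CPM. Of 10 tested markers 3 were higher and 1 lower, where 10.4% and 9.17% of all genes tested were. A call needs the whole counting interval beyond 1.5-fold, the rule given again with the class I results. The higher ones were the transcription factor LHX1 (ratio 2.64), the water channel AQP1 (31 and 82 fragments, interval 2.02 to 4.83) and the cadherin CDH6 (1.99). VIM, an intermediate filament protein, was the lower one (0.651), a call lost under total count scaling, upper quartile scaling, the RPKM totals, the 2-fold rule and relative to the 50 nearest tested genes. LRP2, the endocytic receptor of the proximal tubule, had 0 fragments in both libraries.

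The 4 heavy chain genes, B2M and NLRC5 were higher in the knockout library, while TAP1, TAP2 and TAPBP stayed within 1.5-fold. In RNA of whole cultures, more cells that express a gene and more RNA per cell cannot be told apart. A gene was called higher or lower when its whole counting interval lay beyond 1.5-fold. By that rule 6 of 9 genes were higher, where 10.4% of the 16894 genes tested were, and 0 of 9 were lower, where 9.17% were. Beyond 2-fold, the 4 heavy chains were higher, 4 of 9 against 5.75% of all genes. Among the 8151 genes with at least as many fragments over both libraries as HLA-F, the least abundant of the 9, 4.83% were higher. The median log2 ratio of the 9 genes was 0.95, and that of all genes tested was 0.02. The genes were taken up with earlier results of these data known, so these figures describe the group and test nothing.

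**Figure D1:**
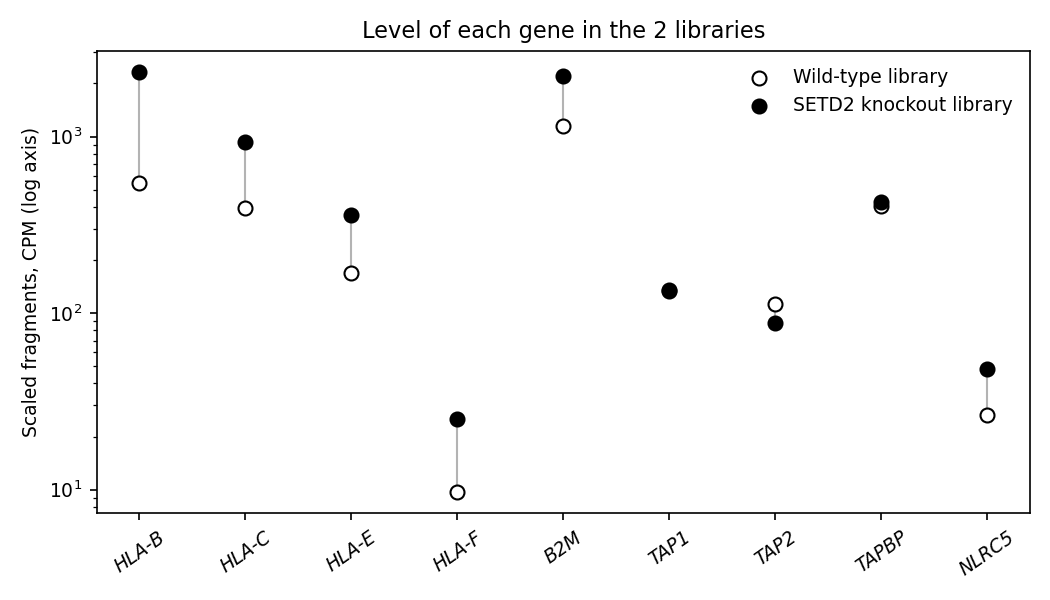
Scaled fragments in CPM (log axis) of each gene in the wild-type (open circles) and SETD2 knockout (filled circles) library, 1 library each. HLA-B went from 547 to 2331 CPM, above B2M in this unit, which does not allow for gene length. Per length HLA-B stayed below B2M in the knockout library, at 1108 against 1674 RPKM. The circles of TAP1 and TAPBP nearly coincide.

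HLA-B (hg19 chromosome 6, 31321649 to 31324989), a classical heavy chain, had the highest ratio of the 9 genes. It had 33201 fragments in the wild-type library and 121242 in the knockout library, or 547 and 2331 CPM. The ratio was 4.26 with an interval of 4.21 to 4.31. By the authors' RPKM, which allows for gene length, it stood at rank 156 of 23375 rows in the wild-type library, with 246 RPKM, and at rank 13 in the knockout library, with 1108 RPKM. HLA-B alone took 0.0533% of all wild-type fragments (exact interval 0.0527% to 0.0539%) and 0.239% of knockout fragments (0.238% to 0.241%).

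HLA-C (chromosome 6, 31236526 to 31239913), the other classical heavy chain followed here and a main ligand of the KIR receptors of natural killer cells, lies next to HLA-B. It had 23904 wild-type and 48645 knockout fragments, or 394 and 935 CPM, a ratio of 2.37 (interval 2.34 to 2.41). The intervals of HLA-B and HLA-C do not overlap, so that the difference between their ratios was larger than counting error. Per length, HLA-B was at 1.40 times the RPKM of HLA-C in the wild-type library and at 2.51 times in the knockout library.

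HLA-E and HLA-F are non-classical heavy chains. HLA-E (chromosome 6, 30457183 to 30461982) presents leader peptides of other class I chains to the NKG2A receptor. It had 10218 and 18671 fragments, 168 and 359 CPM, and a ratio of 2.13 (interval 2.08 to 2.18). HLA-F (chromosome 6, 29691117 to 29695073), which can reach the cell surface without peptide, was the least abundant, with 587 and 1308 fragments, or 9.67 and 25.1 CPM. Its ratio was 2.60 with a wider interval of 2.36 to 2.87, which overlaps that of HLA-C and not that of HLA-B or HLA-E.

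Order by RPKM among the heavy chains was the same in both libraries: HLA-B, HLA-C, HLA-E, HLA-F. HLA-E was at 44.8 and 101 RPKM and HLA-F at 4.03 and 11.1 RPKM in the wild-type and knockout library. HLA-C was at 3.93 and 4.37 times the RPKM of HLA-E. HLA genes have close copies, and how reads that fit more than one of them were counted is not given in the sources used here. Of 50-base words in the longest GENCODE 29 coding transcript, 2.54% in HLA-B, 6.71% in HLA-C, 5.13% in HLA-E and 1.70% in HLA-F also occur in another gene of the reference. The counts of these genes are uncertain for such sharing, and the HLA alleles of the line, which the reference sequence may not match, were not analysed here.

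B2M (chromosome 15, 45003685 to 45010357) lies outside the MHC and shares no 50-base word with another gene. Its fragments numbered 69568 in the wild-type and 114980 in the knockout library, or 1147 and 2210 CPM, and its ratio was 1.93 (interval 1.91 to 1.95). By RPKM it moved from rank 26 (822) to rank 5 (1674). The interval lay below those of all 4 heavy chains. The summed RPKM of these 4 heavy chains was 471 in the wild-type and 1661 in the knockout library, which is 0.573 and 0.992 of the RPKM of B2M. Other heavy chain genes are not in that sum.

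**Figure D2:**
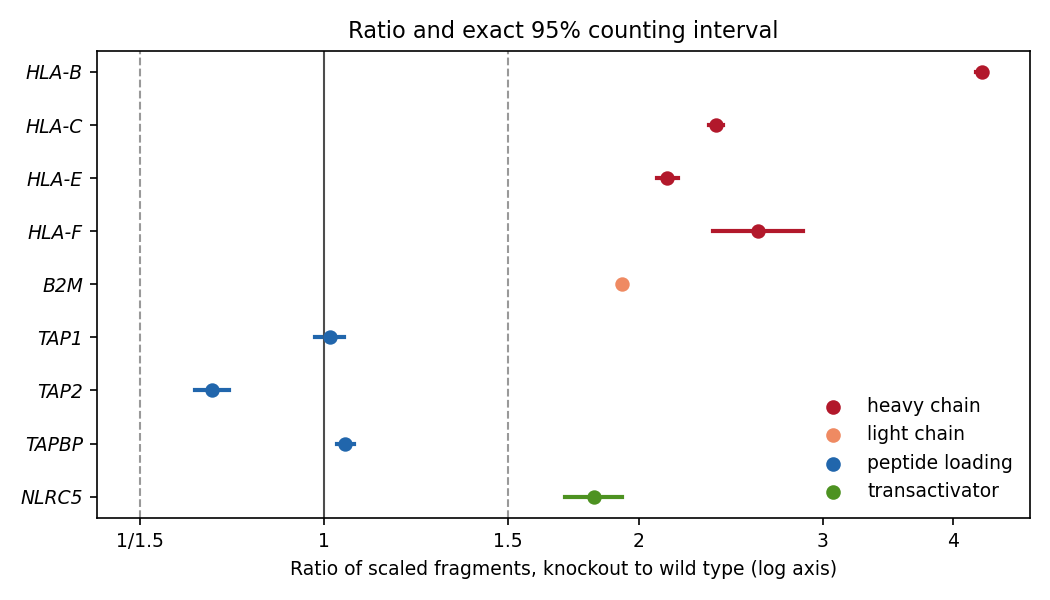
Ratio of scaled fragments, knockout to wild type (log axis), with exact 95% counting intervals as horizontal bars and dashed lines at 1.5-fold in each direction. The heavy chains, B2M and NLRC5 lie right of the upper line, and TAP1, TAP2 and TAPBP lie between the lines.

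The peptide-loading genes did not share this difference. TAP1 (chromosome 6, 32812986 to 32821748), one chain of the peptide transporter, had 8077 wild-type and 7011 knockout fragments, 133 and 135 CPM, and a ratio of 1.01 (interval 0.980 to 1.05). TAPBP (chromosome 6, 33267472 to 33282164) had 24551 and 22063 fragments, 405 and 424 CPM, and a ratio of 1.05 (1.03 to 1.07). TAP2 (chromosome 6, 32789610 to 32806547), the partner chain of TAP1, had 6815 and 4563 fragments, 112 and 87.7 CPM, and a ratio of 0.781 (0.752 to 0.811). TAP2 was thus below TAP1 in its ratio by more than counting error, without reaching 1.5-fold.

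Per length, TAP1 was at 2.48 times the RPKM of TAP2 in the wild-type library and at 3.21 times in the knockout library. TAPBP was at 2.20 and 2.28 times the RPKM of TAP1. HLA-B went from 7.72 to 32.5 times, and B2M from 25.8 to 49.1 times, the RPKM of TAP1. Together TAP1, TAP2 and TAPBP took 0.0633% of wild-type and 0.0664% of knockout fragments, while the 4 heavy chains and B2M took 0.221% and 0.602%. A row of unknown function, LOC100507463, overlaps TAP1 by 1292 bases and had 171 and 307 fragments, and HLA-F-AS1 overlaps HLA-F by 696 bases and had 196 and 174. Whether counting used strand is not given in the sources used here, so reads in those overlaps cannot be assigned to one gene. In GENCODE 29, 35.8% of the 50-base words of TAP2 also occur in another gene model, so its count can depend on the annotation used.

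NLRC5 (chromosome 16, 57050986 to 57117436), the class I transactivator, was low in both libraries and higher in the knockout library. It had 1610 and 2500 fragments, 26.5 and 48.1 CPM, and a ratio of 1.81 (interval 1.70 to 1.93). This interval overlaps that of B2M and lies below those of the heavy chains. At 2.79 and 5.34 RPKM, NLRC5 was at rank 9037 and rank 7136 of the rows. TAP1, TAP2 and TAPBP were not called while NLRC5 was, and the cause of this difference was not tested.

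Position on chromosome 6 was examined next, since 7 of the 9 genes lie in the MHC. Between the start of HLA-F and the end of TAPBP the tables hold 172 other rows, of which 134 had at least 10 reads. Of these 134, 29 were higher and 3 lower, where 10.4% and 9.17% of all genes tested were. Their median log2 ratio was 0.22, against 1.09 for the 7 genes on chromosome 6 and 0.02 for all genes tested. As means, the other rows and the 7 genes were closer, at 0.63 and 0.79. The share of higher rows was 21.6%, but 16 of the rows are themselves named HLA and 11 of those were higher. Without them, 18 of 118 rows (15.3%) were higher, 3 were lower and the median log2 ratio was 0.20. Higher heavy chain genes and TAP genes within 1.5-fold thus stood in the same region.

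Ranked by the lower bound of the interval, the highest rows there were HLA-DRB1, HLA-DQB1 (both class II) and the class I pseudogene HLA-H. HLA-H had 36 wild-type and 1398 knockout fragments, a ratio of 45.3 (interval 32.6 to 64.9), and its reads may come in part from coding heavy chain genes of like sequence. The 3 lower rows were the cytokine gene TNF (386 and 8 fragments, ratio 0.0242), the stress response gene IER3 (6036 and 2214, ratio 0.428) and SLC44A4, a choline transporter family gene (24 and 5, ratio 0.243). Set against the local median, that of the 50 tested genes nearest to each, HLA-B had a log2 ratio of 1.88, HLA-C 1.11, HLA-E 1.03, HLA-F 1.25, B2M 0.99 and NLRC5 0.80. On that scale TAP1 was at -0.40, TAPBP at -0.18 and TAP2 at -0.78, and TAP2 was then called lower. The 50 genes nearest to TAP1 and TAP2 include the class II genes and had a median of 0.42.

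**Figure D3:**
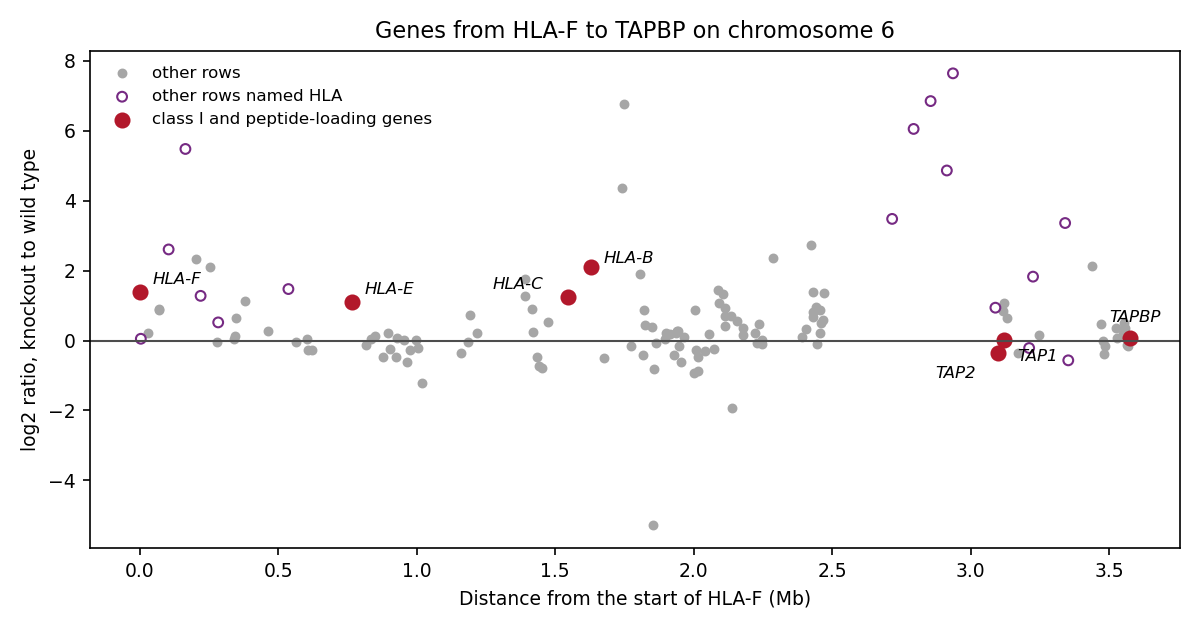
Log2 ratio of knockout to wild type for each row with at least 10 reads, against distance in Mb from the start of HLA-F. Filled red points are the 7 class I and peptide-loading genes, open purple points other rows named HLA, and grey points all other rows. HLA-F, HLA-E, HLA-C and HLA-B stand between 1.09 and 2.09, and TAP2, TAP1 and TAPBP between -0.36 and 0.07.

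Genes upstream of peptide loading differed less than the heavy chains. Beside the counts of each list, 10.4% of all genes tested were higher and 9.17% lower. Of 5 genes of the immunoproteasome and its activator, which favour peptides with ends that fit class I, PSMB8 was higher with 3425 and 5325 fragments and a ratio of 1.81 (interval 1.74 to 1.89). PSMB8 was not called relative to the 50 nearest tested genes or under the 2-fold rule. The other 4 were not called, with ratios of 1.07 for PSME1 to 1.57 for PSMB9 (interval 1.47 to 1.68), the gene next to TAP1. PSMB9 passed, and 2 of 5 were then higher, under total count scaling, upper quartile scaling and the RPKM totals. Of their 3 constitutive counterparts, PSMB5, which PSMB8 replaces, was lower (ratio 0.526) and PSMB6 and PSMB7 were not called. Of 8 trimming peptidases none was called in either direction, and the most abundant, ERAP2, which trims peptides in the endoplasmic reticulum, had a ratio of 1.26. Of 7 chaperones of class I assembly none was called, with ratios of 0.726 to 1.02. The most abundant by fragments over both libraries, CANX, the lectin chaperone that binds new heavy chains, had a ratio of 0.993. PDIA3, the disulfide isomerase of the loading complex, had a ratio of 0.772, and TAPBPL, a relative of tapasin, had 0.731. PDIA3 and TAPBPL were singled out after their values were seen.

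Among 12 factors of the class I promoter complex, CIITA was higher and 0 were lower, where 10.4% and 9.17% of all genes tested were. The median log2 ratio of the 12 was 0.11. CIITA, the class II transactivator related to NLRC5, had 14 and 47 fragments, a ratio of 3.92 (interval 2.12 to 7.70). RFX5, a subunit of the X1 box factor, had a ratio of 0.827, which was singled out after the values were seen. Of 20 interferon ligands, receptors and signalling genes 15 were tested, 0 were higher and 2 lower. IFNAR2, a receptor chain for type I interferon, had a ratio of 0.467 and SOCS1, a feedback inhibitor, 0.438. IRF9 (ratio 1.63, interval 1.45 to 1.83) missed the rule and passed it under total count scaling, upper quartile scaling, the RPKM totals and with undivided counts. IRF1, which acts on class I promoters and was singled out after its value was seen, had a ratio of 0.839. The interferon ligands of the list were near 0: IFNB1 had 0 and 4 fragments, and IFNG and the 3 interferon lambda genes had 0 in both libraries. Interferon alpha genes were not in the list. A count of 0 allows up to 3 fragments, or 0.0494 CPM for wild type and 0.0577 CPM for knockout.

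Of 24 interferon-stimulated genes tested outside antigen presentation, 14 were higher and 1 lower, where 10.4% and 9.17% of all genes tested were. The median log2 ratio of the 24 was 1.02. The 2 highest by interval bound were RSAD2 and OASL and the lower gene was GBP2, a call lost under the same alternatives as that of VIM. Of 5 NF-kB subunits, which bind the kappaB site of class I promoters, 3 were lower and 0 higher (median -0.78). RELB had a ratio of 0.527 and NFKB2 0.566. MHC class II genes had 6 of 10 tested members higher and 0 lower. Their summed level was 11.6 CPM for wild type and 36.8 CPM for knockout, below that of HLA-E alone in each. CD74 held 9.33 and 14.9 CPM of these sums and was not called (ratio 1.60). It was called higher under total count scaling, upper quartile scaling and the RPKM totals. Each of these lists was drawn up with earlier results of these data known.

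Of 14 class I-like molecules and ligands of the NKG2D receptor, 2 were higher and 0 lower, where 10.4% and 9.17% of all genes tested were. The median log2 ratio of the 14 was 0.40. PROCR, the protein C receptor with a class I-like fold, had a ratio of 1.63, and MR1, which presents vitamin B metabolites, had 1.72 (interval 1.54 to 1.93). Neither was called under the 2-fold rule, MR1 was not with the 99% interval, and PROCR was not relative to the 50 nearest tested genes, where MICA and ULBP1 were called lower. MICA and MICB, NKG2D ligands that lie near HLA-B, had 2491 and 1521 and 685 and 528 fragments, ratios of 0.712 and 0.899, and were named after their values were seen. Of 6 genes that act in surface turnover of class I, MARCH9, a membrane ubiquitin ligase, was lower with 295 and 94 fragments and a ratio of 0.372 (interval 0.291 to 0.470), and 0 were higher. Pseudogenes and non-coding rows of the class I region had 5 of 8 members higher and 0 lower, led by HLA-H and HCG26 (1 and 139 fragments, interval 28.6 to 6449).

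**Figure D4:**
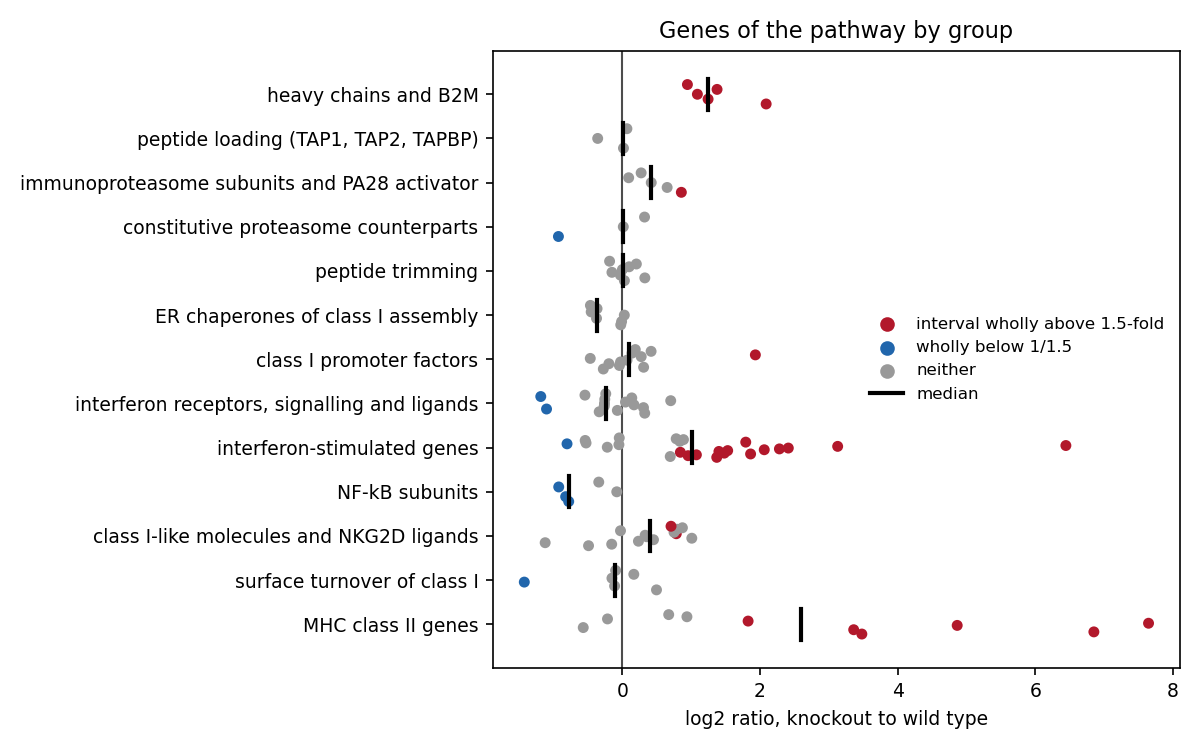
Log2 ratio of knockout to wild type for the tested genes of each group, 1 point per gene, with the group median as a black bar. Red and blue points have a counting interval wholly above 1.5-fold or wholly below its inverse. All heavy chain and B2M points are red, and those of TAP1, TAP2 and TAPBP are grey.

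Leukocytes carry much class I, and their markers were read beside these results. Of 12 leukocyte markers 7 were tested, and 2 were higher and 1 lower, where 10.4% and 9.17% of all genes tested were. The summed level of these markers was 93.7 CPM for wild type and 320 CPM for knockout. Most of this was LCP1, an actin-bundling protein also found in carcinoma lines (50.9 and 277 CPM, ratio 5.44). CD68, another marker of the list, followed with 38.6 and 39.6 CPM (ratio 1.03) and was not called. CD14 had 7 and 38 fragments and CSF1R had a ratio of 0.401. The defining marker PTPRC had 2 and 1 fragments, and CD3E had 0 in both libraries. Endothelial markers summed to 1.40 and 1.65 CPM, with ERG higher (3 and 22 fragments, interval 2.57 to 44.6) and PECAM1 at 1 and 0 fragments. Fibroblast and pericyte markers summed to 18.2 and 25.3 CPM, with COL1A1 higher (ratio 2.25) and LUM (0.367) and COL1A2 (14 and 0 fragments) lower. Sums run over the tested markers. The part of other cell types in the class I values was not tested beyond these levels.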

How the data were processed

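RNA of 2 libraries, 1 per line, was sequenced. Per the labels' protocols, RNA extraction was conventional and libraries followed standard Illumina protocols. Per the submitters' processing notes, the tools were TopHat2 2.0.6, Bowtie and HTSeq on build hg19, with settings, annotation and strand use not given in the sources used here. The authors deposited 1 table per library of 23398 gene rows, with raw counts of reads and RPKM, per the file headers. The RPKM is the count divided by gene length and by a fixed total, and the counts sum to 72.7% and 72.9% of that total for wild type and knockout. Every deposited count was even, so counts were divided by 2 to give fragments. Y rows of 23 genes that also have an X row were dropped.

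Library sizes were scaled with edgeR 4.0.16 (R 4.3.3), method TMM (trimmed mean of M values), over genes with at least 10 reads. Ratios carry exact conditional (Clopper-Pearson) 95% intervals, and log2 ratios use 0.5 added fragments per library. No p-value was computed. Motifs were searched on both strands of RefSeq promoter windows. Older symbols of list genes were matched through RefSeq synonyms, and all 160 entries of 16 lists had a row. The 9 genes and the lists were chosen with earlier results of these data known. Beside the 9 genes, SETD2 was named by rule. So were up to 2 higher and 2 lower genes of each list by the interval bound nearest to 1. Where none was called, the most abundant gene of the list was named. The 3 highest and 3 lowest rows between HLA-F and TAPBP were also named. Other named genes fall outside these rules and were picked with their values known. Among them are PAX8, CDH6, LRP2, PSMB9, IRF9, CD74, CD68, PTPRC, CD3E, PECAM1, HCP5, HLA-L and HLA-J. Some genes that these rules or the gene family would take are not reported here. No genes of like pattern are named, since 2 libraries give each gene 1 ratio. Alternatives were total count, upper quartile and DESeq2 1.42.0 scaling, TMM on protein-coding genes, the RPKM totals, minimums of 1 and 50 reads, undivided counts, ratios relative to the 50 nearest tested genes, a 99% interval, 2-fold, a fold without an interval, 2 added fragments, and means.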

Additional observations from a re-analysis of the deposited data

How the results depend on the processing

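Of the 9 genes, 6 were called higher under every alternative run except the 2-fold rule, under which 4 were (HLA-B, HLA-C, HLA-E and HLA-F, but not B2M or NLRC5), where 5.75% of all genes were. None was called lower except relative to the 50 nearest tested genes, where 1 was, TAP2. The median log2 ratio of the 9 genes ran from 0.94 with DESeq2 size factors to 1.03 with the RPKM totals, and their mean was 0.82. The difference between the 7 chromosome 6 genes and the other rows of their region was 0.87 as medians and 0.16 as means. The cause was not tested, but the mean of the other rows named HLA was 2.85. Total count scaling, upper quartile scaling and the RPKM totals moved the median of all genes from 0.02 to 0.09, 0.09 and 0.10. The log2 ratio of HLA-B ran from 1.88 to 2.17 and that of TAP1 from -0.40 to 0.10 over all alternatives. Over all alternatives, 348 list counts stayed within 1.5 times and 36 did not. Under the 2-fold rule 0 NF-kB subunits were lower, and PSMB5, SOCS1, CDH6, COL1A1 and CSF1R also lost their calls. No paired analysis was possible because each line has 1 library.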

Other observations

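Class III of the MHC, the stretch between the class I and class II genes, also held higher rows. Over the whole span from HLA-F to TAPBP, 15.3% of tested rows not named HLA were higher, against 10.4% of all genes tested. That share takes in rows outside class III, and none was computed for class III alone. The heat shock genes HSPA1A, HSPA1B and HSPA1L, which encode HSP70 chaperones and lie side by side, had 879 and 1589, 3635 and 7886, and 65 and 153 wild-type and knockout fragments. Their ratios were 2.11 (interval 1.94 to 2.29), 2.53 (2.43 to 2.63) and 2.75 (2.04 to 3.73). HSPA1A and HSPA1B are near-identical, so the split of reads between them is uncertain. C6orf48, a host gene of small nucleolar RNAs, followed with a ratio of 1.91, and NEU1, the lysosomal sialidase, with 1.63 (interval 1.55 to 1.71). Rows not called lay in the same stretch, among them VARS (ratio 1.13), LSM2 (0.838) and the small nucleolar RNAs SNORD48 (1.65) and SNORD52 (1.32). All these genes were named after their values were seen. The lower rows TNF (ratio 0.0242) and SLC44A4 (0.243), given above, lie in this stretch too.

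HCP5, a non-coding transcript between MICA and MICB, had 48 wild-type and 860 knockout fragments, a ratio of 20.9 (interval 15.6 to 28.6). It lies near HLA-B, at a ratio of 4.26, and MICA, at 0.712. HLA-L, a class I pseudogene, had 298 and 710 fragments and a ratio of 2.78, and HLA-J 52 and 64 and a ratio of 1.44 (interval 0.980 to 2.11).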
